A study of Mus musculus with 35 samples.

Results

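H3K4me3 was compared between mouse embryonic fibroblasts (MEFs) that had received Forskolin and MEFs that had not, on day 4 of chemical reprogramming. The members were 6 of the 7 H3K4me3 ChIP-seq libraries of a series of 35 samples, read over a deposited table of 12566 regions. Chemicals are written by letters: C is CHIR99021, an inhibitor of the kinase GSK3; 6 is Repsox, an inhibitor of the TGF-beta receptor ALK5; F is Forskolin; A is AM580, a retinoid receptor agonist; and E is EPZ004777, an inhibitor of the H3K79 methyltransferase DOT1L. The treatments with Forskolin were 6FAE, CFAE and C6FAE, the last being the full cocktail. Those without it were AE, C6AE and Basal. The labels do not give the content of Basal, which was counted as lacking Forskolin. A and E were thus in all 5 treatments named by letters, and whether Basal held them, and so whether they were balanced between the groups, is not given. C6FAE and C6AE are the 1 pair whose names differ by F alone. C was in 2 of the 3 treatments with Forskolin and in 1 of the 3 without, and the same holds for 6, so the contrast also holds part of these chemicals. The seventh library, titled as control but labelled C6FAE, was left out. Each treatment had 1 library, so the treatments served as the units, 3 against 3, and p-values measure the spread between treatments.

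H3K4me3 is a histone mark laid down by the SET1 and MLL methyltransferases, and it is known for sitting at the promoters of active and poised genes. H3K27me3, the mark of Polycomb repressive complex 2, accompanies silenced developmental genes, and regions that carry both marks are called bivalent. ATAC-seq reads open chromatin through the insertions of a transposase. Forskolin activates adenylyl cyclase, and the cAMP it raises activates protein kinase A and the transcription factor CREB. Region positions are those of the deposited table, whose build is mm9 in the submitters' processing notes. No annotation of that build was used here, so regions are given by position, length and overlap with the other assays.

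One library stood apart before any comparison. The C6AE library held 745089 tags, whereas the other 5 held 3296306 to 7103488. Over the 12566 regions, its centred values correlated with those of the other libraries at Pearson's r of 0.277 to 0.538. AE and Basal correlated at 0.858, and the 3 Forskolin libraries with one another at 0.669 to 0.768. The Forskolin libraries correlated with AE and Basal at 0.561 to 0.746, which overlaps the range among themselves. These are correlations across regions of single libraries and are given as descriptions. C6AE was the lowest of the 6 libraries in 31.95% of the regions and the highest in 25.97%. The main comparisons below are therefore given with and without it. Without C6AE, the treatments left on the side without Forskolin are AE and Basal, which are not labelled as holding C or 6 either, so that Forskolin and the presence of C or 6 cannot be told apart in that comparison.

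As deposited, H3K4me3 was lower over nearly the whole table with Forskolin. The median RPKM (mapped reads scaled to region length and library size) over all regions was 11.2 in 6FAE, 15.7 in CFAE and 11.4 in C6FAE. Without Forskolin it reached 18.8 (AE), 17.8 (Basal) and 24.8 (C6AE), and the groups did not overlap. On the log2(RPKM + 1) scale the column medians were 3.77 ± 0.26 (SD, n = 3) with Forskolin and 4.41 ± 0.24 (SD, n = 3) without, a difference of -0.64, or -0.50 without C6AE. The two-sided exact permutation test over treatments gave p = 0.1, the smallest value that 3 against 3 can give. The mean difference was below 0 in 99.24% of the regions, and the middle 90% of the regions ran from -1.10 to -0.28.

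**Figure D1:**
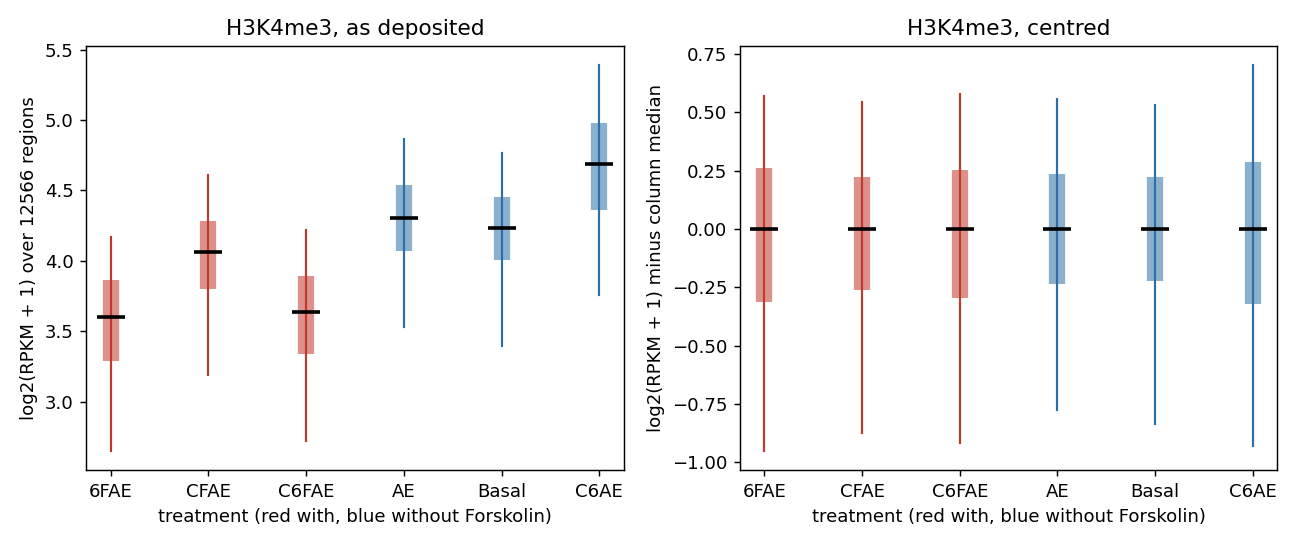
Distribution of H3K4me3 log2(RPKM + 1) over 12566 regions in each treatment, as deposited (left) and after each column was centred on its median (right); black marks are medians, thick bars the middle 50% and thin lines the middle 90% of the regions, red with and blue without Forskolin. The 3 medians with Forskolin lie at 3.60 to 4.06 and the 3 without at 4.23 to 4.69. The SD of the centred columns runs from 0.43 in AE to 0.53 in C6AE, the widest.

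In the limma fit to the values as deposited, 5889 of 12566 regions (46.9%) were lower with Forskolin at an adjusted p under 0.05, and 2 regions (0.0159%) were higher. The median difference over all regions was -0.65. In 8212 regions the 3 Forskolin values all lay under the 3 others, and in 1 region they all lay above. Without the C6AE library the fit called 1901 lower and 14 higher regions, and without C6FAE it called 0 lower and 0 higher, with 4166 and 0 at an unadjusted p under 0.05. Without 6FAE it called 284 lower regions, without AE 1407, and without CFAE 9161. The shift is shared by the whole column of a library, so these counts repeat a difference between columns rather than add up separate regional events.

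The same direction was seen at the summits of the authors' peaks in these libraries. The median pileup at the highest listed peak of each region, scaled to the library's tags, was 3.50 in 6FAE, 4.64 in CFAE and 3.69 in C6FAE. Without Forskolin it was 6.33 (AE), 5.43 (Basal) and 12.3 (C6AE), again without overlap (difference -4.08, and -1.94 without C6AE, exact permutation p = 0.1). The median fold enrichment over input gave another order for the C6AE library. It was 9.77, 14.1 and 9.06 in 6FAE, CFAE and C6FAE, 18.2 in AE and 19.9 in Basal, but 9.11 in C6AE, within the Forskolin range (difference -4.77, and -8.08 without C6AE, exact permutation p = 0.3). At the regions named below, the fold within a library followed its unscaled summit tags. In C6AE, summits of 3, 4 and 9 tags were listed at 3.64, 4.56 and 9.11. The C6AE median of 9.11 came with a median summit of 9 tags, so it is not a reading apart from the low depth of that library. RPKM was also multiplied by length, added up over the table and divided by the total that RPKM scales to. This sum was 0.597 to 0.851 with Forskolin and 0.961 to 1.31 without. It passed 1 in AE and C6AE, so it cannot be read as a share of the reads. These values cannot tell a lower mark in the cells from a weaker enrichment of the library.

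Centring each column on its median removed the shared shift and left 0 regions called in either direction (0.0% of 12566). The smallest adjusted p in the limma fit was 0.516, and 541 regions were lower and 449 higher at an unadjusted p under 0.05. The middle 90% of the centred differences ran from -0.46 to 0.36. At 1.5-fold or more, 312 regions were lower and 134 higher, and at 2-fold or more 32 were lower and 18 higher. With C and 6 as covariates, which leaves 2 residual degrees of freedom and counts Basal as lacking both, 370 regions were lower (2.94%) and 292 higher (2.32%). In that fit C6AE alone carried a weight of 0.6 on the side without Forskolin, and AE and Basal 0.2 each.

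**Figure D2:**
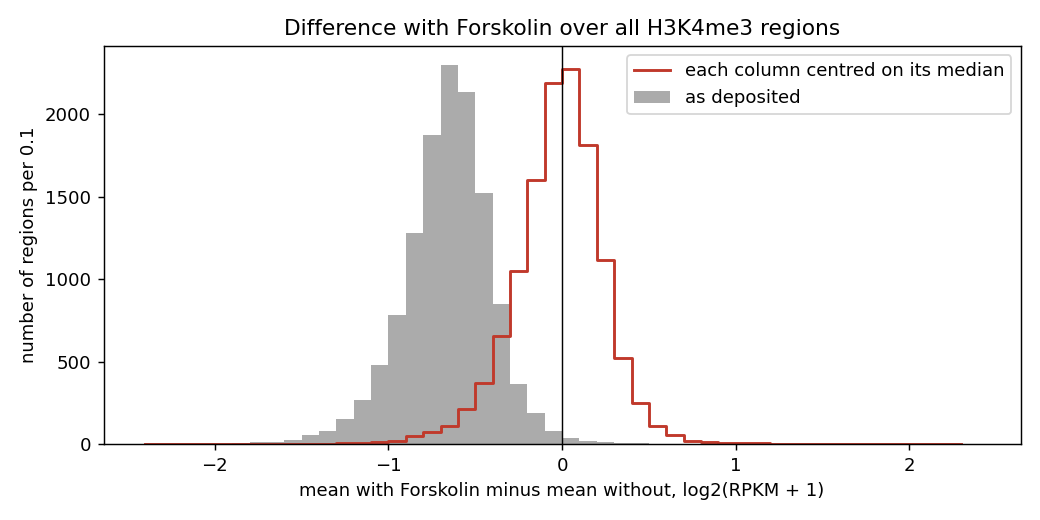
Number of H3K4me3 regions by mean difference with minus without Forskolin in log2(RPKM + 1), in bins of 0.1, as deposited (grey bars) and with columns centred (red line). The deposited differences peak near their median of -0.65, and the centred ones near 0, with more regions past 1.5-fold on the lower side.

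With all 6 libraries, regions that were higher without overlap of the groups took a larger share of the long regions than of the short ones. After centring, 907 regions (7.22%) were higher in all 3 Forskolin treatments than in any other and 968 (7.7%) were lower. Of the 3142 regions in the shortest quartile of length (255 to 2518 bp), 2.83% were of the higher kind and 9.13% of the lower kind. In the longest quartile (5013 to 63156 bp) these shares were 11.36% and 7.42%. The 2 middle quartiles lay between for the higher kind, at 5.19% and 9.49%. Without C6AE, where 3 values face 2, 1585 regions were higher and 2072 lower. The higher kind then took 10.47% of the shortest and 15.72% of the longest quartile, and the lower kind 15.75% and 17.85%, so the lower kind was no longer more frequent at the short end.

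Among the class medians by length, the shortest quartile was the one with the lowest difference, and the third and the longest differed little from each other (0.0374 and 0.0343). In the shortest quartile the median centred value was -0.35 in 6FAE, -0.35 in CFAE and -0.31 in C6FAE. Without Forskolin it was -0.29 (AE), -0.27 (Basal) and -0.05 (C6AE), so all 3 Forskolin treatments lay below the 3 others. The difference of the group means was -0.13, and -0.06 without C6AE (exact permutation p = 0.1). In the longest quartile it was 0.0343 (p = 0.6, exact permutation) and 0.0024 without C6AE, with CFAE at 0.20 and C6AE at 0.08 as the ends of the range. Short regions also scattered more: the SD of the regional difference was 0.320 in the shortest quartile and 0.217 to 0.241 in the others. Over the 16 classes tested, the smallest adjusted p was 0.533.

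Overlap with H3K27me3 and ATAC split the table into 4 classes, of which open regions without H3K27me3 were the main one. There were 9575 regions with ATAC and no H3K27me3, 1548 with both, 696 with H3K27me3 and no ATAC, and 747 with neither, at an overlap of at least 1 bp. Their median lengths were 4076, 3020, 1826.5 and 2055 bp in that order. The overlap classes thus also differed in length, and the part of length in their differences was not tested. In regions with ATAC and no H3K27me3 the treatments were nearly level, at 0.09, 0.06 and 0.05 in 6FAE, CFAE and C6FAE against 0.07, 0.07 and -0.02 in AE, Basal and C6AE (exact permutation p = 0.7). The difference was 0.0262 with all 6 libraries and -0.0046 without C6AE, so its sign turned with that library. In regions with neither, the 3 Forskolin treatments lay below the 3 others. The medians were -0.25, -0.33 and -0.31 against -0.22, -0.17 and -0.15, a difference of -0.12 that was -0.10 without C6AE (exact permutation p = 0.1). Among the 4 overlap classes this difference moved least when C6AE was left out, though where an overlap had to cover 50% of the region the difference was 0.0025.

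The classes with an H3K27me3 overlap turned direction with the C6AE library. An overlap means that a listed H3K27me3 region shares at least 1 bp, and does not show both marks in each treatment. In regions with H3K27me3 and no ATAC the medians were -0.66 in 6FAE, -0.46 in CFAE and -0.33 in C6FAE. Without Forskolin they were -0.44 (AE), -0.67 (Basal) and 0.16 (C6AE). 6FAE and CFAE thus lay between Basal and AE, C6FAE lay above both, and C6AE stood above all. The difference was -0.17 with all 6 libraries (exact permutation p = 0.7) and 0.07 without C6AE. In regions with both H3K27me3 and ATAC it was -0.06 (exact permutation p = 0.8) and 0.07 without C6AE. The 3 libraries with C (CFAE, C6FAE and C6AE) were the highest 3 in this class, at -0.13, -0.06 and 0.16, and 6FAE was the lowest at -0.32. That the order followed C was seen after the values and was not tested.

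**Figure D3:**
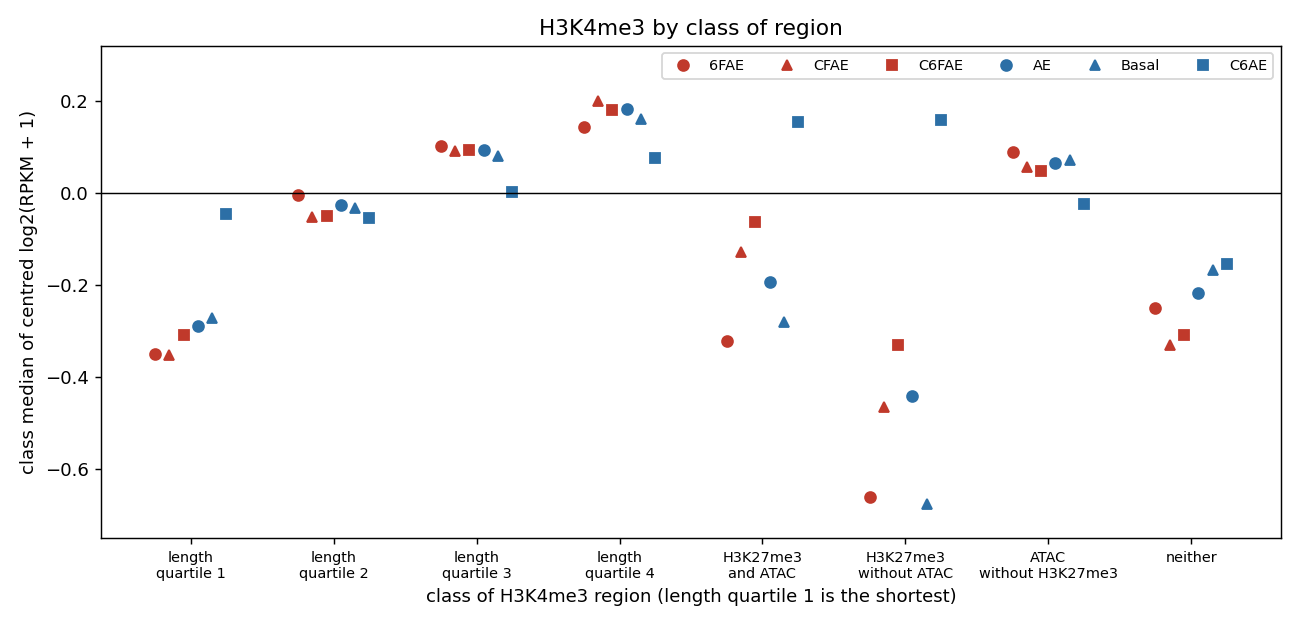
Median centred H3K4me3 log2(RPKM + 1) of each treatment (1 library each) in the 4 length quartiles and the 4 overlap classes, red with and blue without Forskolin. C6AE stands at 0.16 in both classes with H3K27me3, above every other treatment, and the 3 Forskolin treatments lie below the 3 others in the shortest quartile and in the class with neither overlap.

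The regions that differed most were low in signal in both directions, and the lower ones were also short and often lacked an ATAC region. Taking non-overlapping groups and a mean centred difference of at least 1.5-fold, a threshold chosen after the values were seen, 168 regions (1.34%) were lower and 64 (0.509%) higher. The lower regions had a median length of 1944.5 bp, against 3767.5 bp over all regions, and the higher ones 3460.5 bp. Of the lower regions, 58.33% were in the shortest quartile, which holds 25% of the table, and 35.12% had no ATAC overlap, against 11.48% of all regions. H3K27me3 overlapped 34.52% of them, against 17.86% of all. At 2-fold the lower set was 26 regions with a median length of 1186 bp, of which 10 were under 1000 bp and 15 had no ATAC. By share of their own class, 4.17% of the regions with H3K27me3 and no ATAC and 4.02% of those with neither were in the lower set of 1.5-fold, against 0.836% of those with ATAC alone. Of the higher set of 1.5-fold, 34.38% were in the shortest quartile and 9.38% had no ATAC. The quartile of lowest mean RPKM held 112 of the 168 lower and 41 of the 64 higher regions. The SD of the regional difference was 0.352 in that quartile and 0.196 to 0.244 in the others. The part of the larger scatter of short or weakly marked regions in these shares was not tested.

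Leaving out C6AE changed which regions these were. The same rule then gave 200 higher (1.59%) and 316 lower regions (2.51%). Of the 200 higher regions 75.5% overlapped H3K27me3, against 28.12% of the 64 found with all libraries. Of the 316 lower regions 15.82% did, slightly under the share of the whole table. The lower regions were still short, with 41.77% in the shortest quartile, but so were the higher ones, at 51%, and 34.5% of these had no ATAC. The regions called with C and 6 as covariates went the other way on H3K27me3, which overlapped 45.95% of the 370 lower regions and 7.88% of the 292 higher ones. C6AE, the library with the largest weight in that fit, stood apart in both sets. Its centred median was 0.68 in the lower regions, against 0.06 in AE and -0.03 in Basal. In the higher regions it was -0.53, against 0.01 in AE and 0.05 in Basal. The lower regions held more short regions and more regions without ATAC than the table under all 3 choices, at 41.77 to 58.33% in the shortest quartile and 23.73 to 35.12% without ATAC. The share with H3K27me3 differed with C6AE left out, and again in the fit with covariates, where both the model and the rule of choice differ.

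**Figure D4:**
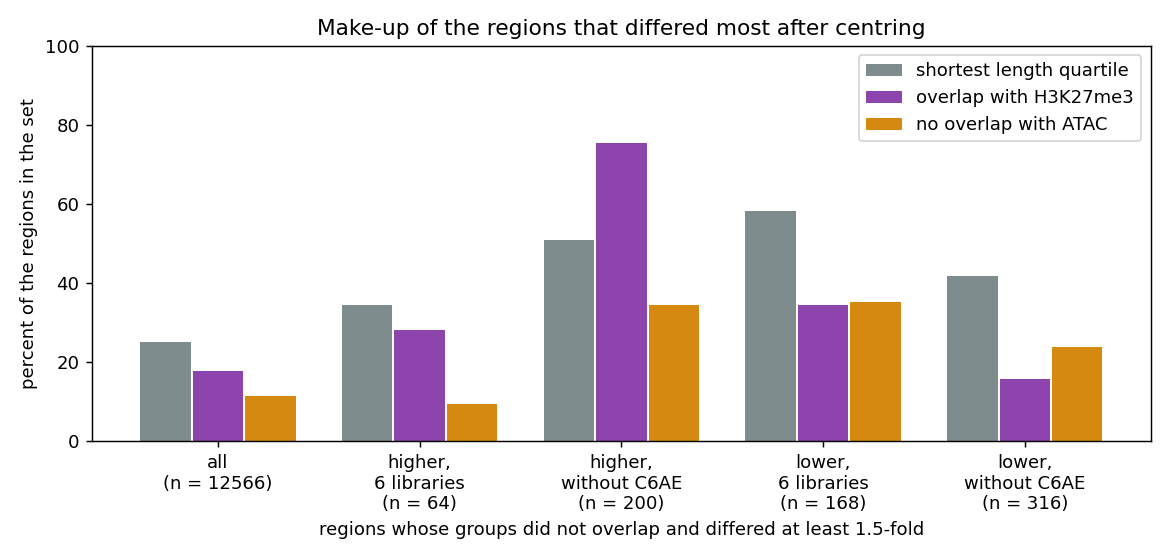
Share of regions in the shortest length quartile, with H3K27me3 overlap and without ATAC overlap, for all 12566 regions and for the regions higher or lower with Forskolin after centring (groups not overlapping, at least 1.5-fold), with all 6 libraries and without C6AE. The H3K27me3 share of the higher set goes from 28.12 to 75.5% when C6AE is left out, and that of the lower set from 34.52 to 15.82%.

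The value of C6AE in the sets chosen without it is a reading those sets did not use. In the 200 higher regions the centred medians were -0.41, -0.09 and 0.13 in 6FAE, CFAE and C6FAE and -0.98 and -1.04 in AE and Basal. C6AE, which holds no Forskolin, stood at 0.22, above all of them. It was closer to the Forskolin mean than to the mean of AE and Basal in 170 of the 200 regions (85.0%), against 51% of all regions. In the 316 lower regions the medians were -0.77, -0.79 and -1.06 with Forskolin and -0.09 and -0.04 in AE and Basal. There C6AE stood at -0.59 and was closer to the Forskolin mean in 61.39% of the regions. The higher regions were chosen for low values in AE and Basal, so a library near its own median falls closer to the Forskolin mean by that choice. C6AE was also high in regions with H3K27me3 in general (median 0.16), which make up 75.5% of that set.

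The 10 regions with the largest centred increase and the 10 with the largest decrease, among those without overlap of the groups, were named by a rule. None passed the adjusted p of the centred limma fit, in which these 20 regions ranged from 0.516 to 0.647. The increases were 0.92 to 2.21 on the log2 scale and the decreases 1.16 to 1.62. The 10 higher regions were 404 to 10022 bp long; 9 overlapped ATAC and 4 H3K27me3. The 10 lower regions were 434 to 6912 bp long; 6 overlapped ATAC and 4 H3K27me3, and 4 were under 1000 bp. Without C6AE the difference was 2-fold or more in 10 of the higher and 7 of the lower regions. Its direction there was fixed by the rule, and its size rests on values by which the rule chose the regions.

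Among the higher regions, 2 were also called higher in the values as deposited. The first, chr11:89890277-89897555, spans 7279 bp and overlaps ATAC and part of an H3K27me3 region. Its RPKM was 8.42 in 6FAE, 17.8 in CFAE and 14.6 in C6FAE, 2.26 in AE, 3.46 in Basal and 14.1 in C6AE. AE and Basal were the low ones, and C6AE lay within the Forskolin range until the columns were centred. The centred difference was 1.86 ± 0.48 (SE, adjusted p = 0.583 in limma), and as deposited it was 1.22 (adjusted p = 0.0485). H3K27me3 over it was 0.0, 0.637 and 0.324 RPKM with Forskolin against 5.20 in AE, 7.50 in Basal and 0.857 in C6AE. H3K27me3 was thus low in the same 4 treatments in which H3K4me3 was high as deposited. ATAC there was 14.2, 18.2 and 23.4 RPKM with Forskolin and 11.5, 9.50 and 8.51 in AE, Basal and C6AE, so that the groups did not overlap.

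The second, chr3:103379027-103381663, lies wholly in an H3K27me3 region and has no ATAC region. Its H3K4me3 was 17.0, 16.3 and 17.4 RPKM with Forskolin, and 6.50, 5.69 and 18.1 in AE, Basal and C6AE. The difference as deposited was 0.86 (limma adjusted p = 0.0447) and the centred one 1.5 ± 0.30 (SE, adjusted p = 0.516). Here too AE and Basal stood apart from the other 4 treatments before centring. H3K27me3 was 5.84, 3.65 and 2.56 RPKM with Forskolin and 8.08, 10.3 and 5.39 in AE, Basal and C6AE. The groups overlapped, with 6FAE above C6AE. The H3K27me3 columns were also lower as a whole with Forskolin. Over the 2244 regions with a value, the highest median in log2(RPKM + 1) with Forskolin was 2.61 (6FAE). The lowest without was 2.74 (C6AE). After centring on these medians, the H3K27me3 difference at this region was -0.26.

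The largest fitted increase was at a region of 404 bp, chr4:3018345-3018748, and rests on 1 library listed at 0. RPKM there was 9.20, 15.1 and 11.0 with Forskolin, 7.38 in AE and 7.98 in Basal, and C6AE was listed at 0. The centred difference was 1.03 without C6AE. At chr2:136537280-136540744, an ATAC region without H3K27me3, H3K4me3 was 10.5, 16.5 and 12.9 RPKM with Forskolin and 6.32, 8.26 and 12.3 in AE, Basal and C6AE. The centred difference was 1.19 ± 0.24 (SE, limma adjusted p = 0.516). ATAC there was 23.8, 16.4 and 33.2 RPKM with Forskolin and 13.0, 12.5 and 12.7 without. As deposited, every Forskolin value lay above the others. The ATAC columns differed in level, with medians in log2(RPKM + 1) of 4.60 in CFAE and 4.07 in C6AE. After centring on these medians CFAE lay below C6AE, so the groups overlapped, and the centred ATAC difference was 0.62. Of the 9 higher regions with an ATAC value, the centred ATAC difference was above 0 in 5 and below 0 in 4, the lowest being -0.46 at chr4:3018345-3018748.

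All 10 lower regions were also lower, without overlap and past the adjusted p, in the values as deposited, as were 5249 (41.77%) of all regions. The region chr12:50482736-50489647, 6912 bp long, and its neighbour chr12:50490992-50493824, which starts 1344 bp further on, lie in the same H3K27me3 region. The first had 2.16, 5.26 and 4.77 RPKM in 6FAE, CFAE and C6FAE and 21.5, 16.2 and 23.4 in AE, Basal and C6AE. The centred difference was -1.48 ± 0.31 (SE, limma adjusted p = 0.516). At its summit the authors' peaks held 3, 10 and 5 tags with Forskolin and 27, 27 and 7 without. The neighbour had 1.66, 2.89 and 1.73 RPKM against 16.4, 11.8 and 8.20, and a centred difference of -1.42 (adjusted p = 0.618). The pair counts as 1 place rather than as independent regions. H3K27me3 over it was 13.2, 6.19 and 5.62 RPKM with Forskolin and 7.03, 10.9 and 5.60 without, so the groups overlapped there.

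The region chr7:125630030-125636671, with ATAC and no H3K27me3, had the highest summits among the 10 lower ones in every library but C6AE. Its RPKM was 5.33, 17.6 and 6.92 with Forskolin and 36.0, 27.3 and 41.0 in AE, Basal and C6AE. The summit held 11, 27 and 9 tags with Forskolin and 35, 56 and 12 without. The centred difference was -1.21 ± 0.24 (SE, limma adjusted p = 0.516) and -1.22 without C6AE. ATAC over it was 19.5, 21.0 and 16.8 RPKM with Forskolin and 23.9, 19 and 18.2 without, so open chromatin did not part the groups. At chr3:70606714-70611463 H3K4me3 was 0.897, 8.90 and 3.65 RPKM with Forskolin and 16.6, 21.0 and 14.5 without, and at chr16:24448095-24451450, which overlaps neither assay, it was 4.15, 6.77 and 2.14 against 19.9, 17.4 and 17.0.

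The shortest of the named lower regions rested on few tags. At chr12:19181752-19182185, 434 bp with neither overlap, RPKM was 1.08, 3.09 and 1.62 with Forskolin and 10.9, 5.31 and 32 in AE, Basal and C6AE. No peak was listed there in 6FAE and C6FAE, and the summits of the other libraries held 3 to 10 tags. The C6AE value of 32 RPKM came with a summit of 4 tags. The centred difference was -1.62, and -1.12 without C6AE. At chr4:129117709-129118146, 438 bp inside an H3K27me3 region, the C6AE value was 47.4 RPKM with 9 tags at the summit, and the difference was -1.17 with it and -0.66 without.

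**Figure D5:**
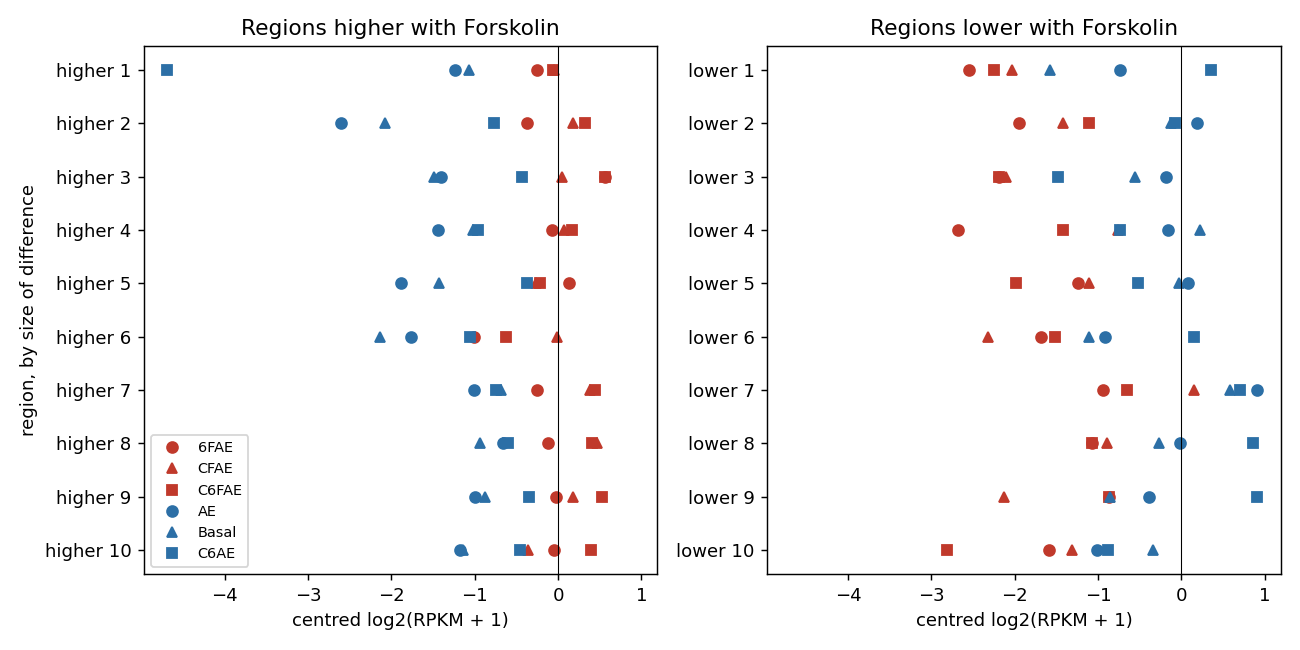
Centred H3K4me3 log2(RPKM + 1) of the 6 treatments at the 10 regions with the largest increase (left) and the 10 with the largest decrease (right), each point 1 library, red with and blue without Forskolin. The rule asked for groups without overlap; C6AE (blue squares) lies nearest to the Forskolin points at several higher regions and far below them at the first, where it was listed at 0.

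The ATAC and H3K27me3 tables give readouts that the choice of these regions did not use. In the 58 higher regions of 1.5-fold with an ATAC value, the median centred ATAC log2(RPKM + 1) was -0.03, 0.05 and 0.08 in 6FAE, CFAE and C6FAE. Without Forskolin it was -0.11, -0.06 and -0.04 in the order AE, Basal, C6AE, and the groups did not overlap (difference 0.11, exact permutation p = 0.1, adjusted p = 0.353 over 20 such tests). In the 109 lower regions with an ATAC value the difference was -0.07 with overlap of the groups (exact permutation p = 0.3). In the 200 higher regions found without C6AE, 131 had an ATAC value. There ATAC was -0.11, -0.13 and 0.06 with Forskolin and -0.41, -0.38 and -0.17 without (exact permutation p = 0.1, adjusted p = 0.353). ATAC was higher with Forskolin in 75.57% of these regions, against 50.59% of all 11123 regions with a value. In the sets from the fit with covariates ATAC did not part the groups, with differences of 0.0041 in the higher set (exact permutation p = 1.0) and 0.0282 in the lower set (exact permutation p = 0.4). ATAC columns are the authors' merge of 2 libraries per treatment and carry no replicate error.

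H3K27me3 at the regions of higher H3K4me3 differed in direction with the way the regions were chosen. In the 18 higher regions of 1.5-fold with an H3K27me3 value, its centred median was -0.70, -0.19 and -0.26 in 6FAE, CFAE and C6FAE and -0.06, 0.01 and -0.14 in AE, Basal and C6AE (exact permutation p = 0.1, adjusted p = 0.353). The H3K27me3 library of 6FAE, the lowest, held 633980 tags. In the 151 such regions of the set chosen without C6AE the difference was -0.12, with C6AE within the Forskolin range (exact permutation p = 0.3), and in the 23 of the set from the fit with covariates it was 0.28 (exact permutation p = 0.2). In the 58 lower regions with a value H3K27me3 was 0.30, 0.20 and 0.26 with Forskolin and 0.11, 0.15 and 0.18 without (exact permutation p = 0.1, adjusted p = 0.353), but the median regional difference was 0.03 and 53.45% of the regions lay above 0, against 46.26% of all 2244. Across all regions with both readouts, the centred differences in H3K4me3 and ATAC correlated at Pearson's r = 0.074 over 11123 regions, and those in H3K4me3 and H3K27me3 at -0.049 over 2244. Without C6AE these were 0.245 and -0.233. They are correlations across regions that share treatments, are given as descriptions, and the first pair is close to none.

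C6FAE against C6AE, the pair that differs by Forskolin alone in name, has no replicate and no test. As deposited, 6692 regions (53.3%) were at least 2-fold lower in C6FAE and 12 (0.0955%) at least 2-fold higher, with a median difference of -1.04. After centring, 406 (3.23%) were lower and 195 (1.55%) higher. The lower ones were frequent among short regions and those without ATAC. Of the shortest quartile, 11.52% were at least 2-fold lower, against 0.16 to 1.02% in the other quartiles. Higher regions were also most frequent in the shortest quartile, at 3.47% against 0.64 to 1.31% in the others. They made up 2.56% of the regions without ATAC and 1.42% of those with it. Of the regions with H3K27me3 and no ATAC, 18.82% were lower and 1.29% higher, whereas with ATAC and no H3K27me3 the shares were 1.23% and 1.36%. For scale, the other pairs with C6AE had 717 to 1175 regions at 2-fold in either direction, and C6FAE against C6AE had 601. The pairs without C6AE had 34 (AE against Basal) to 550 (C6FAE against Basal). The centred difference between C6FAE and C6AE correlated with that between the other 2 treatments with Forskolin and the other 2 without at Pearson's r = 0.156 and Spearman's rho = 0.190 across 12566 regions, as a description. By chromosome, the median centred difference between the groups ranged from -0.07 on chromosome X, whose regions had a median length of 2395 bp, to 0.04 on chromosome 16.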

How the data were processed

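H3K4me3 and H3K27me3 ChIP-seq, with input, and ATAC-seq were measured on day 4. Per the labels, reads were aligned with Bowtie2 to mm9 and processed with MACS2 and deepTools 3.1.0. The authors deposited tables of RPKM, averaged over bins of each region (1 library per ChIP-seq treatment, merged ATAC-seq libraries). Their MACS 2.1.2 lists hold, per the file headers, pileup (signal in tags), fold enrichment over input (a ratio) and −log10 q-values, of which the last are deposited although the headers say q was not calculated.

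Groups followed the labels. The 3 columns titled as control were not used, since the ChIP-seq ones contradict their labels. Region ends were read as 1-based. log2(RPKM + 1), as deposited and centred on column medians, was fitted with limma 3.58.1 (lmFit, eBayes with trend, two-sided, Benjamini-Hochberg over 12566 regions), which was tested on simulated data. Single values had exact permutation tests over treatments. Regions were named by a rule: the 10 largest centred differences in each direction past adjusted p 0.05 without overlap of the groups, filled up by non-overlapping regions. Neighbouring assays were assigned by overlap of at least 1 bp, and their values weighted by overlap. Gene lists that had been planned were not used, since no mm9 annotation was at hand. The region set, its classes and the lists were chosen with earlier results of these data known. Alternatives changed the pseudocount, scaling, filter, chromosomes, fold, covariates, overlap and libraries. Python 3.11.15, numpy, pandas and scipy were used.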

Additional observations from a re-analysis of the deposited data

How the results depend on the processing

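No paired analysis was possible because each ChIP-seq treatment has 1 library. The count of 5889 lower regions as deposited was 1012 at 2-fold or more, 9715 with C and 6 as covariates, 2382 without the trend, and 0 after quantile normalization or centring on the most marked 10% by mean RPKM, both of which remove a shift of whole columns. Leaving out 1 treatment gave 0 to 9161. The 2 higher regions were 0 with a pseudocount of 10, without the quartile of regions lowest in mean RPKM, without the trend and under those 2 scalings, 1 at 2-fold, 4 with C and 6 as covariates, 10 with log2 of total tags as covariate (added after seeing the data), and 0 to 14 when 1 treatment was left out. The centred counts of 0 were 370 lower and 292 higher with C and 6 as covariates, 1 higher with total tags as covariate, and 0 to 1 higher when 1 treatment was left out. The median difference of -0.65 was 0.0125 when centred on the most marked regions, by construction, and -0.79 to -0.51 when 1 treatment was left out. The class difference of regions with neither overlap (-0.12) was 0.0025 where an overlap had to cover 50% of the region and -0.0487 with a pseudocount of 10, and the cause was not tested. That of the quartile of highest mean RPKM (-0.0069) was 0.0015 with a pseudocount of 0.1, 0.0008 after quantile normalization and 0.0096 centred on the most marked regions. In C6FAE against C6AE, the 6692 lower and 12 higher regions as deposited were 10892 and 32 at 1.5-fold and 1931 and 3 with a pseudocount of 10. The centred 406 and 195 were 1354 and 1045, and 39 and 27. Depth limits the C6AE values, whose median summit held 9 tags against 12 to 37 in the other libraries.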
